A study of Mus musculus with 8 samples.

Results

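Peaks of N6-methyladenosine (m6A), the most common internal modification of messenger RNA, were examined on the transcripts of 9 genes of insulin and insulin-like growth factor (IGF) signalling in mouse gastrocnemius, a calf muscle. The genes were taken by name from the deposited peak lists: the receptors Igf1r and Insr, the receptor substrates Irs1 and Irs2, the ligands Igf1 and Igf2, the scavenger receptor Igf2r, and the carrier and binding proteins Igfals and Igfbp5. Of the 9 genes, 7 held peaks and 2, Igf1 and Igf2, held none. They accounted for 108 of 38927 peaks and for 25 of 13116 regions, a region being a set of peaks from the lists that overlapped by at least 1 base on the same strand.

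The mice were C57BL/6 males aged 10 weeks, with no transgene or deletion named in the labels. The denervated group comprised 2 gastrocnemius muscles taken 14 days after denervation, and the innervated group comprised 2 untreated muscles of the opposite leg. The controls thus also came from animals with 1 denervated leg. RNA captured by an m6A antibody was sequenced for each muscle next to its uncaptured input, which made 8 libraries and 4 peak lists. The labels do not say whether equal replicate numbers mark the same animal, nor whether muscles were pooled. The p-values below thus speak only of how the values of these muscles divide between the groups, not of how far apart they lie. Part of the spread between muscles may be technical.

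Insulin and the IGFs act through receptor tyrosine kinases that phosphorylate the Irs adaptor proteins. These recruit phosphatidylinositol 3-kinase, which activates AKT. In skeletal muscle the pathway drives glucose uptake and protein synthesis through mTOR and restrains the FoxO factors of the atrophy programme. IGFs in blood and tissue are held by binding proteins, of which Igfbp5 is produced by muscle cells. The acid-labile subunit, encoded by Igfals, stabilises the complex of IGF and binding protein in blood and is known as a product of the liver.

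The lists held 9327 and 10300 peaks in innervated libraries 1 and 2, and 9804 and 9496 in denervated libraries 1 and 2. Read counts were not analysed here, so depth, transcript level and methylation level per site are unknown. A called peak needs both transcript and methylation, so a missing call shows the absence of neither. The muscle tissue could not be checked by peaks on fibre genes: 0 of 12 genes, among them Ckm, Acta1, Ttn and Dmd, held a peak in any list. Of 28 markers in all, 8 held a peak, all of them of other cells. Cdh5 and Kdr of endothelium, Pdgfra of fibroblasts and Adipoq of adipocytes were called in all 4 libraries. Pecam1 of endothelium and Col1a1 of fibroblasts were called in denervated 1 alone, and Sox10 of Schwann cells and Pax7 of satellite cells in innervated 2 alone. The 3 macrophage markers held none. In bulk muscle, fewer cells of a type and less RNA per cell cannot be told apart.

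Calls on the pathway genes were mostly shared by both groups. Of the 7 genes with a peak, 6 were called in all 4 libraries (85.7%, against 48.8% of the 5987 gene names in the lists). Igfals alone was innervated only, meaning called in both innervated lists and in neither denervated list (14.3%, against 3.14% of all names), and 0 genes were denervated only, against 3.42% of all names. Of the 25 regions, 13 were called in all 4 libraries (52.0%, against 34.6% of all regions), 3 were innervated only (12.0%, against 4.2%) and 1 was denervated only (4%, against 3.67%). The innervated-only regions were 2 of Igfals and 1 of Igf2r, and the denervated-only region was of Igfbp5. Of the other 8 regions, 5 were called in a single library, 2 in both libraries numbered 1, and 1 in every library but innervated 2. Over bases, 52.7% of the 18054 covered by any list on these genes were covered in all 4, against 33.1% of bases on all genes. Innervated-only bases made up 6.85%, against 4.22%, and denervated-only bases 1.37%, against 4.11%. These shares are a description of genes chosen with earlier results known and carry no test. The region shares also depend on linking by 1 base, which chains neighbouring peaks. With a reciprocal overlap of at least 50%, Irs2 held 13 regions in place of 2, and 1 of the 13 was called in all 4 libraries. The share over all regions was not computed for that setting.

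**Figure D1:**
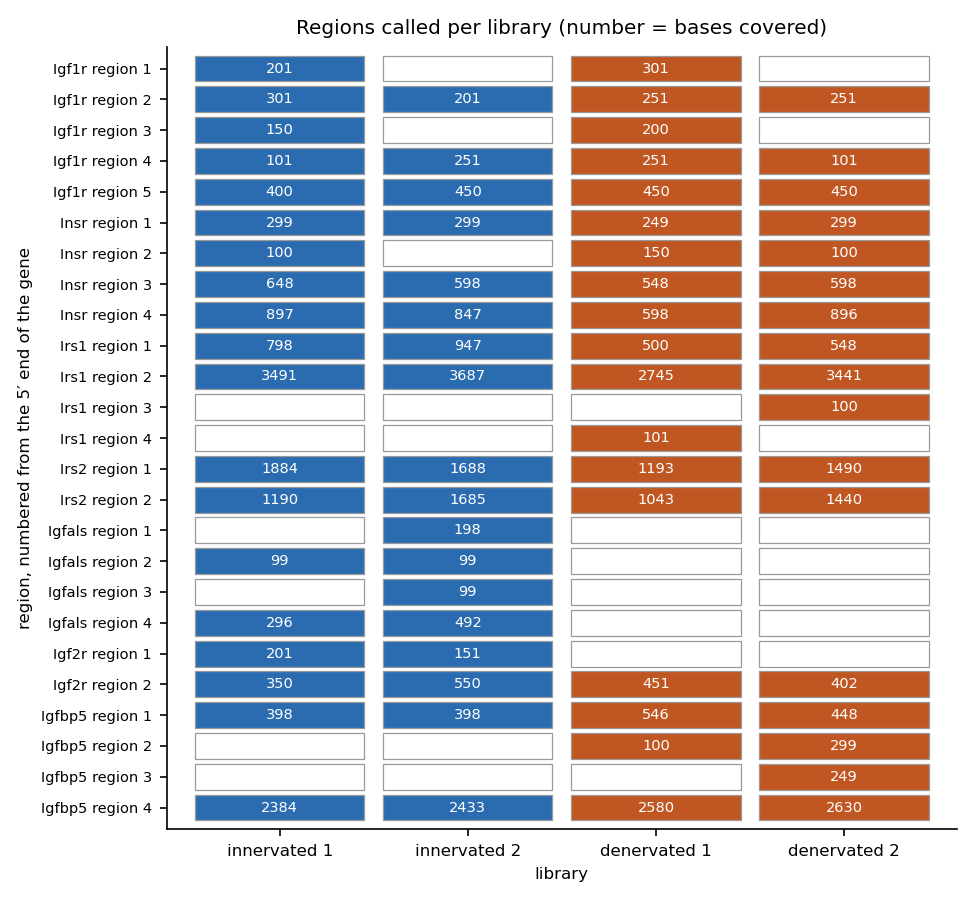
Each row is 1 of the 25 regions, numbered from the 5′ end of its gene, and each column is a library. A filled cell is a call and its number gives the bases covered (blue, innervated; orange, denervated). The 4 Igfals regions are filled only in the innervated columns, whereas 13 rows are filled across.

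The 2 receptor kinase genes had the same main regions in both groups. Igf1r, the receptor for IGF ligands, spans 281412 bases of chromosome 7 (mm10, plus strand) and held 5 regions. Its 3 regions called in all 4 libraries lay near the 3′ end of the gene, at 68226131 to 68226431, 68230822 to 68231072 and 68231521 to 68231970, and the last of them ended 1698 bases before the end of the RefSeq gene span. The other 2 regions, at 68004012 to 68004312 and 68226481 to 68226680, were called in innervated 1 and denervated 1 and in neither library numbered 2. The first of these began 51755 bases from the 5′ end. Igf1r was thus split by library number and not by group in both of its variable regions.

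Peaks of Igf1r covered 1153 and 902 bases in the innervated libraries and 1453 and 802 in the denervated ones. The groups overlapped, with means of 1028 ± 177 and 1128 ± 460 bases (SD, n = 2; exact permutation test, two-sided, p = 1). Among the Igf1r peaks, that of the region nearest the 3′ end ranked highest in innervated 1, denervated 1 and denervated 2. Its percentiles within these lists were 49.0, 53.0 and 46.7, where 100 is the smallest score. In innervated 2 it stood at 10.3, level with the peak at 68230822 to 68231072 and above the other Igf1r peak. The score is the authors' value per peak, with no statement of what it measures. Its percentile orders peaks within a list and is scaled to the length of that list. Since the meaning of the score is not stated, a shift in the percentile shows no change in methylation.

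Insr, the insulin receptor, spans 128728 bases of chromosome 8 (minus strand) and held 4 regions, 3 of them called in all 4 libraries. One lay at the 5′ end, at 3279219 to 3279517 and 132 bases from the start of the gene span. It covered 299, 299, 249 and 299 bases in innervated 1 and 2 and denervated 1 and 2. The other 2 lay toward the 3′ end, at 3155400 to 3158719 and 3153460 to 3154405. The first of these included, in innervated 1, a 24-base block across a gap of 2672 bases. The fourth region, at 3258528 to 3258677, was missing from innervated 2 and ranked low elsewhere, at percentiles of 3.54, 3.80 and 1.76. Covered bases were 1944 and 1744 in innervated and 1545 and 1893 in denervated muscle, which overlapped (1844 ± 141 against 1719 ± 246, SD, n = 2; exact permutation p = 0.667). The best peak of Insr stood at percentiles of 64.3 and 67.9 in the innervated lists and of 74.2 and 70.0 in the denervated lists. The denervated values lay above the innervated ones, as they did at the 5′ region, which stood at 11.3 and 5.90 against 20.1 and 19.7. With the median over the peaks of the gene in place of the best peak, the groups overlapped and the difference of group means went from 6.01 to −13.98 percentile points.

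The transcripts of the adaptor genes Irs1 and Irs2 were among the most widely covered of the series. Over the 4 lists, their peaks covered 5182 and 3864 bases, more than 99.4% and 98.3% of the genes called in all 4 libraries, whose median was 1032 bases. Both adaptors have their coding sequence almost wholly in the first exon, as is known for mouse, and the covered stretches lay at the 5′ end of both gene spans. Exon and coding annotation was not used here.

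Irs1, the adaptor for insulin and IGF receptors in muscle, spans 58335 bases of chromosome 1 (minus strand). It held 2 regions called in all 4 libraries. The first ran from 82290493 to 82291439, the annotated start of the gene. The second was spliced: its blocks at 82286777 to 82290443 and 82237238 to 82237604 were joined across a gap of 49172 bases, and each of the 4 lists held 1 peak with both blocks. Of the 2 remaining regions, each a call of 1 denervated library, one was at 82237039 to 82237138 (denervated 2) and the other at 82236740 to 82236840 (denervated 1), next to the far block. Irs1 peaks covered 4289 and 4634 bases in the innervated and 3346 and 4089 bases in the denervated libraries. Both denervated values lay below both innervated ones (3718 ± 525 against 4462 ± 244, SD, n = 2). The exact permutation test gave p = 0.333, the smallest that 2 against 2 libraries allow.

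The number of Irs1 peaks ran the other way, at 6 and 3 in innervated and 8 and 7 in denervated muscle (4.50 ± 2.12 against 7.50 ± 0.707, SD, n = 2; exact permutation p = 0.333). Peaks averaged 715 and 1545 bases in the innervated lists and 418 and 584 in the denervated ones. Gaps shorter than 500 bases numbered 5 and 2 against 7 and 6 and summed to 691 and 396 against 2182 and 791 bases. The peak and gap counts include the 1 peak beside the far block in each denervated list. In the first region called in all 4 libraries, peaks numbered 2 and 1 against 2 and 1. In the second they numbered 4 and 2 against 5 and 5. Over these regions denervated 2 thus had as many peaks as innervated 1, and only denervated 1 had more than both innervated lists. The difference of 3 peaks was 1.5 without innervated 2, 4.5 without innervated 1 and 1.5 with regions less than 100 bases apart joined. Among the larger 50% of scores in each list the difference in covered bases was 50.5. Only denervated 1 then held an Irs1 peak, of 101 bases. Of the 5182 bases, 2895 were covered in all 4 libraries, 247 were innervated only and 0 were denervated only. Irs1 ranked high in its lists, at percentiles of 99.0 and 97.6 in innervated and 87.5 and 97.7 in denervated muscle, so the groups overlapped.

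Irs2, the related adaptor that is prominent in liver and pancreatic islets, spans 24249 bases of chromosome 8 (minus strand). Its 2 regions, at 11006449 to 11008430 and 11004470 to 11006350, were called in all 4 libraries, and the second carried a 1-base block at 10987014, across a gap of 17455 bases, in innervated 2 and denervated 1. Covered bases were 3074 and 3373 in innervated and 2236 and 2930 in denervated muscle (3224 ± 211 against 2583 ± 491, SD, n = 2). The number of peaks was 3 and 6 against 7 and 8 (4.50 ± 2.12 against 7.50 ± 0.707). As for Irs1, the denervated libraries had fewer covered bases and more peaks, without overlap. Each comparison gave the smallest possible p (exact permutation test, p = 0.333). Innervated-only bases made up 394 of 3864 and denervated-only bases 0. The difference of 3 peaks was 1.5 without innervated 1, 4.5 without innervated 2 and 1.5 with joined regions. The direction rested on the whole lists. Among the smaller 50% of scores the covered bases differed by 896.5, where innervated 1 held no Irs2 peak. Among the larger 50% the number of peaks differed by −1.5, where innervated 1 alone held Irs2 peaks.

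The Irs2 peaks stood higher in the denervated lists. Their best percentile was 10.99 in innervated 1 and 65.4 in innervated 2, against 91.5 in denervated 1 and 94.9 in denervated 2. The smallest scores were 0.0025 and 2.5e-05 in the innervated and 1.3e-07 and 1.1e-09 in the denervated lists. The groups did not overlap, but innervated 1 stood far below innervated 2, and without it the difference of the means went from 55.0 to 27.8 percentile points. All 6, 7 and 8 peaks of innervated 2, denervated 1 and denervated 2 shared a single score within their list, so their rank does not tell one site of the gene from another. Over the 7 genes, 11 of 26 sets of 2 or more peaks of a gene in a list had equal scores in this way. The difference of 55.0 points was larger than that of 98.9% of the genes called in all 4 libraries, whose median was −0.34. This order of percentiles rests on ranking small scores high, a choice the sources do not settle: with the percentile that is 100 at the largest score, the difference was −55.7 for Irs2. For Irs1 it was −5.68 with small scores ranked high and 45.9 the other way, and the groups overlapped both ways. The 45.9 rested on 1 peak of 101 bases in denervated 1, at a percentile of 7.19 with small scores ranked high.

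**Figure D2:**
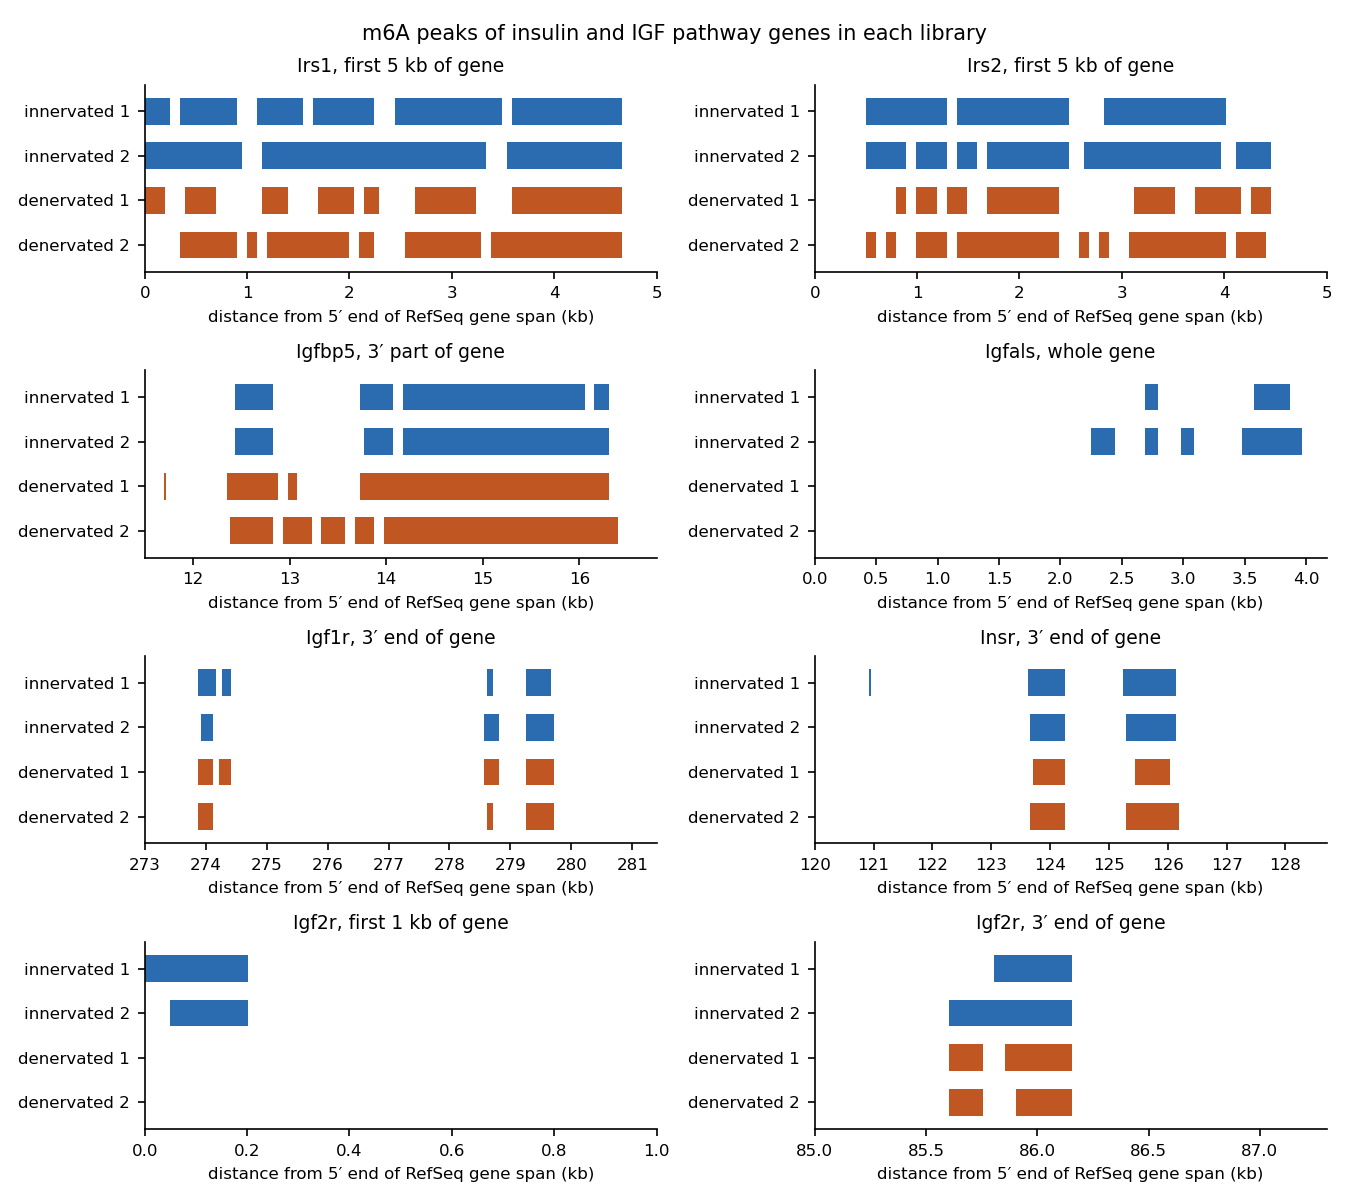
Bars are peaks along the gene in kilobases from the 5′ end of the RefSeq gene span, with 1 line per library (blue, innervated; orange, denervated). Irs1 and Irs2 are covered over much the same stretch in all 4 libraries. The Irs1 bars of denervated 2 begin 349 bases from the start. Irs2 is broken by more gaps in both denervated libraries. Irs1 is broken most in denervated 1, whereas denervated 2 is broken about as much as innervated 1. Igfals and the start of Igf2r have bars in the innervated libraries only. Far 5′ regions of Igf1r and Insr and the distal Irs1 and Irs2 blocks lie outside the windows drawn.

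Among the 6 genes called in all 4 libraries, covered bases were higher in both innervated libraries for Irs1, Irs2 and Igf2r (3 of 6, or 50%, against 17.2% of the 2924 such genes), and higher in both denervated libraries for Igfbp5 (1 of 6, or 16.7%, against 15.6%). Peaks were more numerous in both denervated libraries for Irs1 and Irs2 (33.3%, against 4.86%) and in both innervated libraries for 0 of 6 genes (against 6.46%). The background genes had a median of 1032 covered bases over the 4 lists, against 5182 for Irs1 and 3864 for Irs2. They were not matched for coverage or number of peaks, and genes with few peaks per list can tie, so the shares are not directly comparable. The best percentile was higher in both denervated libraries for Insr and Irs2 (33.3%, against 16.7%) and in both innervated libraries for 0 of 6 (against 17.3%). These last shares depend on the direction given to the score: ranked the other way, the differences were −2.87 for Igf1r, 1.94 for Insr, −30.7 for Igf2r and −9.89 for Igfbp5, beside the turned values of Irs1 and Irs2 above. Of the endothelial markers, Cdh5 had the same order as Irs1 and Irs2, with 1595 covered bases in both innervated libraries and 1347 and 1348 in the denervated ones, and with 2 peaks in both innervated and 3 in both denervated libraries. Kdr overlapped, at 942 and 893 bases against 645 and 944 and at 1 and 1 peaks against 1 and 3. Pecam1, the remaining endothelial marker, held 301 bases in denervated 1 and 0 in every other library. Covered bases also overlapped for the fibroblast marker Pdgfra (751 and 949 against 800 and 700) and the adipocyte marker Adipoq (248 and 444 against 148 and 395). The part of endothelial cells in the Irs1 and Irs2 values was not tested. Over all genes the lists covered 3022237 and 3560882 bases in innervated and 3236460 and 3406499 in denervated muscle, which overlapped.

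**Figure D3:**
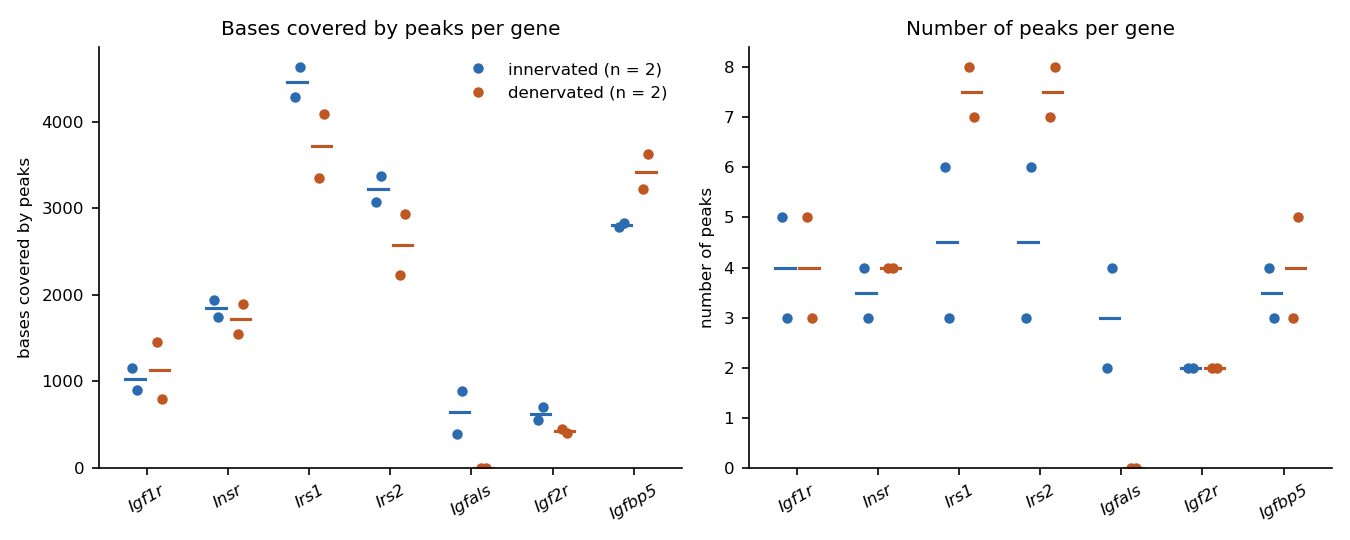
Points are single libraries and lines are group means (blue, innervated; orange, denervated; n = 2 each), for bases covered by peaks on the left and number of peaks on the right. Irs1 and Irs2 have fewer covered bases and more peaks in both denervated libraries, and Igfbp5 has more covered bases there.

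Igfals was the only one of the 9 genes whose call followed the groups. It spans 4168 bases of chromosome 17 (plus strand) and held 4 regions, all nearer its 3′ end than its 5′ end. The region at 24880536 to 24880634 covered the same 99 bases in both innervated libraries. The region at 24881321 to 24881812 covered 296 bases in innervated 1 and 492 in innervated 2, and it ended 199 bases before the end of the gene span. Innervated 2 held 2 further peaks, at 24880094 to 24880291 and 24880830 to 24880928. The denervated lists held 0 peaks on the gene. Covered bases were thus 395 and 888 against 0 and 0 (642 ± 349 and 0 ± 0, SD, n = 2; exact permutation p = 0.333). All peaks of Igfals shared a score within their list, at percentiles of 91.3 and 94.2. The gene was therefore still innervated only among the smaller 50% of scores and absent among the larger 50%. The level of the transcript in the input libraries was not analysed here.

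Igf2r, which binds IGF2 and mannose 6-phosphate and delivers them to lysosomes, spans 87301 bases of chromosome 17 (minus strand). Its 3′ region, at 12683553 to 12684102, was called in all 4 libraries and covered 350, 550, 451 and 402 bases in innervated 1 and 2 and denervated 1 and 2. Its other region, at 12769506 to 12769706, was innervated only and lay 85403 bases from the nearest denervated peak on the gene. It ended at the annotated start in innervated 1, where it covered 201 bases. In innervated 2 it covered 151 bases and stopped 50 bases short of the start. Its peaks stood at percentiles of 54.4 and 26.0. Since these lie on either side of the middle of their lists, neither the smaller nor the larger 50% of scores kept the call in both libraries. Over both regions the covered bases were 551 and 701 in innervated and 451 and 402 in denervated muscle, without overlap (626 ± 106 against 427 ± 34.6, SD, n = 2; exact permutation p = 0.333).

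Peaks reached the annotated transcript start on 2 of the genes. Their first 30 transcribed bases are shown, 5′ to 3′, because the innervated-only region of Igf2r and a shared region of Irs1 reach them, with the letters GGAC, a common core of m6A sites, in capitals.
Igf2r: cgctccggGGACggccacggagcgcctcct
Irs1: ggaggaggaaggaggagggaggaggaggag
The Igf2r stretch lies at chr17:12769677-12769706 and that of Irs1 at chr1:82291410-82291439, both on the minus strand of GRCm38.p6. In the first 50 bases, Igf2r holds GGAC once, from position 9 counted from the start, and Irs1 holds it 0 times on either strand. Over 32851 RefSeq start windows of the same 50 bases, 18.9% hold GGAC on the transcript strand and 33.3% on either strand. The longer GGACT, which contains GGAC, is in neither gene and in 5.76% and 10.4% of the windows. The 50 bases of Igf2r were covered in innervated 1 alone, and those of Irs1 in innervated 1, innervated 2 and denervated 1 but not in denervated 2. A match is a string of letters and not a mapped site.

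Igfbp5, the binding protein made by muscle cells, was the gene with more coverage in denervated muscle. It spans 16801 bases of chromosome 1 (minus strand). A long region from 72858462 to 72861190, near the 3′ end, and one at 72861984 to 72863163 were called in all 4 libraries. The long region covered 2384 and 2433 bases in the innervated and 2580 and 2630 in the denervated libraries. Between them lay the denervated-only region, at 72861636 to 72861934, with 100 bases in denervated 1 and 299 in denervated 2. A further region of 249 bases, at 72861289 to 72861537, was called in denervated 2 alone. The denervated-only region stood 98 bases from the nearest innervated peak, and joining regions less than 100 bases apart left 1 region on the gene, called in all 4 libraries. Neither the smaller nor the larger 50% of scores kept it in both denervated libraries. With a reciprocal overlap of at least 50% in place of 1 base, Igfbp5 held 0 denervated-only regions and 1 innervated-only region.

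Covered bases of Igfbp5 were 2782 and 2831 in innervated and 3226 and 3626 in denervated muscle, without overlap (2807 ± 34.6 against 3426 ± 283, SD, n = 2; exact permutation p = 0.333). Among the larger 50% of scores the difference was −75. Of the 3823 bases, 248 were denervated only and 0 were innervated only. The number of peaks overlapped, at 4 and 3 against 3 and 5. The best percentiles were alike in range, at 64.0, 61.7, 66.3 and 60.5 in the order of innervated 1 and 2 and denervated 1 and 2.

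**Figure D4:**
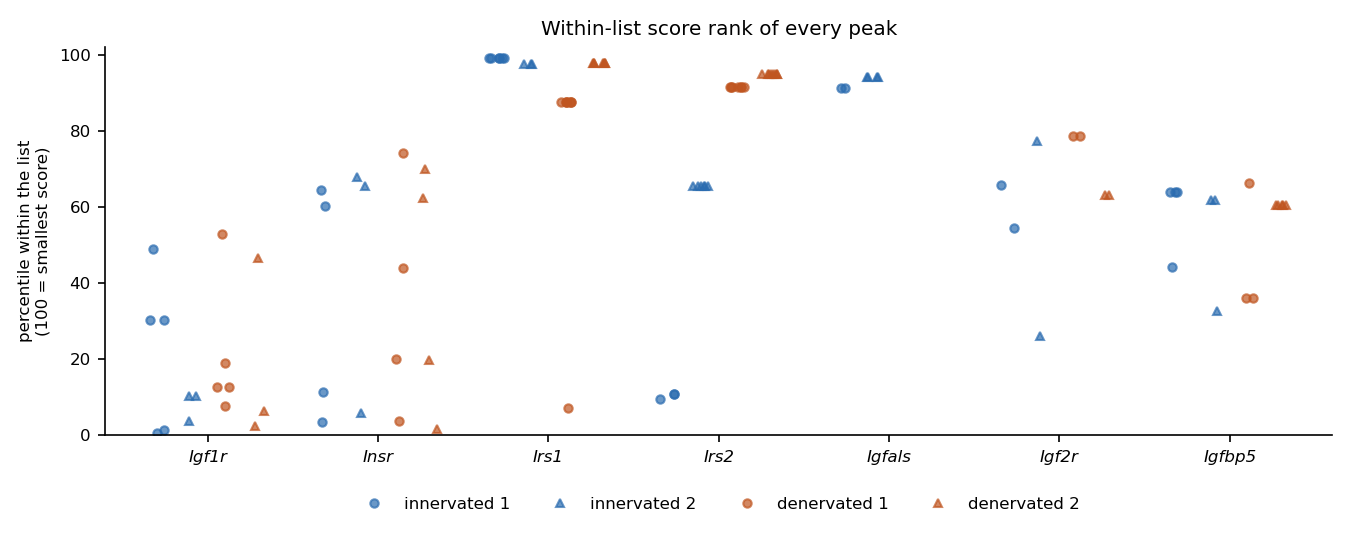
Each point is a peak, placed by gene and at its percentile within its list (100 is the smallest score); circles are libraries numbered 1, triangles libraries numbered 2, blue innervated and orange denervated. Irs2 peaks stand at 9.70 to 10.99 and at 65.4 in the innervated and at 91.5 and 94.9 in the denervated lists, and equal scores make the peaks of a gene coincide.

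The ligand genes Igf1, on chromosome 10, and Igf2, on chromosome 7, had no peak in any list, by name or by position within the RefSeq gene span. Whether their transcripts were methylated below the authors' threshold cannot be read from the lists.

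Further genes of the pathway, 76 in a fixed list, were called in all 4 libraries about as often as genes in general. Of these 76, 42 held a peak, and 20 of the 42 were called in all 4 libraries (47.6%, against 48.8% of all gene names). Of the 42, 1 was denervated only and 1 innervated only, near the 3.42% and 3.14% of all gene names. Inpp5k, a phosphoinositide phosphatase that opposes insulin signalling, was denervated only, at 75648516 to 75648666 on chromosome 11, with 151 bases in both lists but low percentiles of 2.27 and 1.43. Eif4e, the cap-binding translation initiation factor downstream of mTOR, was innervated only, at 138555463 to 138555662 on chromosome 3, at percentiles of 68.7 and 27.1, with a further peak of 100 bases in innervated 1.

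By role, 2 of 10 binding proteins and proteases held a peak, and 0 of these 2 were called in all 4 libraries. Of 16 receptor adaptors and phosphatases, 8 held a peak and 5 of the 8 were called in all 4 libraries (62.5%), among them Grb10, an inhibitory adaptor, and the docking proteins Gab1 and Sh2b1. Of 11 genes of phosphatidylinositol 3-kinase and its opposing phosphatases, 8 held a peak and 3 of the 8 were called in all 4 (37.5%): the regulatory subunit Pik3r1, the lipid phosphatase Inppl1 and the AKT phosphatase Phlpp2. Of 16 genes of AKT and its targets, 13 held a peak and 6 of the 13 were called in all 4 (46.2%), including Foxo1, Foxo3 and Foxo4, whose proteins AKT keeps out of the nucleus. Foxo4 covered 593 bases in each of the 4 libraries. Of 20 genes of the mTOR branch, 11 held a peak and 6 of the 11 were called in all 4 (54.5%), including the kinase Mtor, its partner Rictor and the translation repressor Eif4ebp1. None of the 3 IGF2 mRNA-binding proteins, which read m6A, held a peak on its own transcript (0 of 3).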

How the data were processed

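m6A MeRIP-seq libraries of gastrocnemius muscle were analysed from 4 deposited peak lists, 1 for each immunoprecipitated library, each named by the authors after a captured library and its matching input. A line holds a peak with its gene name, strand and blocks. The peak value is called score per the file headers, ran from 0 to 0.023 in the authors' lists, and was used only to rank or split a list. STAR 2.4.2a, ChIPseeker and mm10 are named per the submitters' processing notes; no source used here names the peak caller or its threshold. Lists were matched to samples by the group and number in their names.

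Peaks were linked across lists when blocks shared at least 1 base on a strand, with Python 3.11.15, numpy 2.4.6 and scipy 1.17.1. The linking was tested on simulated data. Covered bases are merged blocks, and positions are 1-based. Gene spans and start windows came from RefSeq GRCm38.p6, the assembly of mm10. Peak numbers and covered bases of each gene were compared between groups with an exact two-sided permutation test, 1 library being 1 value. No adjustment was made, since p cannot go below 0.333. All other values are descriptions. The 9 genes, the pathway list and the markers were chosen with earlier results of these data known. Of the pathway list, group-specific genes and up to 3 genes per role called in all 4 libraries were named. Settings tried were overlap, strand, either 50% of the scores, equal list lengths, joined regions, assignment by gene span, each library left out and a replicate block.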

Additional observations from a re-analysis of the deposited data

How the results depend on the processing

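The counts of 6 genes called in all 4 libraries, 0 denervated only and 1 innervated only held with lists of equal length, joined regions, assignment by gene span and without any 1 library. Among the smaller 50% of scores the first count was 4; among the larger 50% it was 2, and the innervated-only count 0. Regions called in all 4 libraries, 13 at first, numbered 5 among the smaller 50% and 3 among the larger 50% of scores. With reciprocal overlap of at least 50% they numbered 11, but the genes were then cut into more regions. Irs1 held 12 regions, 2 of them called in all 4 libraries, and Irs2 held 13, with 1 called in all 4. Denervated-only regions, 1 at first, numbered 2 with reciprocal overlap of at least 50% (of Irs1 and Igf2r, while Igfbp5 held 0), 0 with either 50% of the scores and 0 with joined regions, and 2 to 3 when a library was left out, which loosens the definition. Innervated-only regions, 3 at first, numbered 5 with reciprocal overlap, 0 among the larger 50% of scores, and 3 to 5 when a library was left out (5 without innervated 1).

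Differences between group means, denervated minus innervated, changed sign in 4 of 69 recomputed values of peak number and 8 of 69 of covered bases. Among the larger 50% of scores, covered bases differed by −125 for Igf1r, 349 for Insr, 50.5 for Irs1 and −75 for Igfbp5. Peak number differed by −1.5 for Irs2. Irs1 peaks were then held by denervated 1 alone, and Irs2 peaks by innervated 1 alone. Among the smaller 50%, covered bases of Irs2 differed by 896.5, since innervated 1 then held no Irs2 peak, and peak number of Insr by −0.5. Joined regions gave −0.5 for the Igfbp5 peak number. Leaving out a library gave −225.5 to 425.5 for covered bases of Igf1r, −299 to 49 for those of Insr, and −0.5 to 1.5 for the peak number of Igfbp5. For covered bases of Irs1 it gave −1115.5 to −372.5 and of Irs2 −987.5 to −293.5, both nearest 0 without denervated 1, and for the peak number of either gene 1.5 to 4.5. The correlation of same-numbered deviations over 2924 genes was 0.0613 for peak number and 0.0199 for covered bases. Such a correlation cannot show whether same-numbered muscles came from 1 animal. The labels do not say so either, and the numbers were not used as pairs in the main comparisons. With the replicate block, the differences of Irs1 were 3 peaks and −744 bases and those of Irs2 3 peaks and −640.5 bases, as without it; each had an exact sign-flip p of 0.5, the smallest for 2 pairs. Score ranks rest on which end of the score is ranked high: the Irs2 difference was −55.7 with the largest score at 100. That of Irs1 was then 45.9 but rested on 1 peak of denervated 1, and the groups overlapped. Other causes were not tested. Without read depth, a missing peak cannot be told from a shallow library.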
